A study of Mus musculus with 2 samples.

Results

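The miRNAs of the Dlk1-Dio3 imprinted domain were examined in sorted ureteric bud cells of the embryonic mouse kidney. The members were all array probes for miRNAs with 1 of 49 numbers (miR-127, miR-134, miR-136, miR-379, miR-410 and others), whatever their letter or arm. They were chosen by a rule on names that used no values, although earlier results of these data were known. The rule found 101 of the 1040 miRNA probes on the array. The study measured 1 group of 2 samples by miRNA microarray. The cells came from E15.5 embryos of genotype Rosa26YFP; Hoxb7Cre, in which Hoxb7-driven Cre switches on a yellow fluorescent reporter in the ureteric bud, the branching epithelium that forms the collecting ducts. Kidneys were made into single cells with trypsin and the fluorescent cells were sorted. The dye was Cy3 on the array of replicate 1 and Cy5 on that of replicate 2, so an effect of dye and one of sample cannot be told apart. No other tissue, age or genotype was measured, and the labels do not say how many embryos went into a sample. Only signal over the array's own background and the likeness of both samples can therefore be described.

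The Dlk1-Dio3 domain is an imprinted region, in which the parental origin of a chromosome decides which genes are read. Protein-coding genes such as Dlk1, Rtl1 and Dio3 are expressed from the paternal copy, and the long non-coding RNAs Meg3, Rian and Mirg, together with a large set of miRNAs, from the maternal copy. These miRNAs are best known from embryo, placenta and brain. A hairpin can give a miRNA from either arm, and older names mark the arm thought to be minor with an asterisk. Bases 2 to 8 of a miRNA form its seed, which pairs with target mRNAs.

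All 101 members were matched to a RefSeq miRNA gene, and all 51 genes lie on chromosome 12 in the GRCm38.p6 table, on the segment that starts with Mir770 and ends with Mir410. By the spans in that table, Mir770 lies within Meg3, 10 genes within the span of Rtl1, 3 within Rian (Mir341, Mir1188 and Mir370) and 9 within Mirg. The other 28 lie within none of these. Exons and introns are not given there. Both arms were on the array for 50 hairpins and 1 arm for miR-453. Of the array targets, 95 were identical to a RefSeq mature sequence of the same gene, and the other 6 lay within its hairpin.

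The sequences that the results turn on are the arms of the Mir341 hairpin, since 1 of them carried the signal of the whole set, and the targets of the members that came closest to the limit. Capitals mark the seed.
miR-341*: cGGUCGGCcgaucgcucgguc
miR-341: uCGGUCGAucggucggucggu
miR-127: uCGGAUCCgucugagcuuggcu
miR-1188*: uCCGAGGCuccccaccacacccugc
miR-134: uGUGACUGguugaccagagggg
miR-377: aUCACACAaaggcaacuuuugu
The targets are those of the array tables and match RefSeq exactly. RefSeq calls miR-341* mmu-miR-341-5p, at chr12:109611521-109611541, plus strand, and miR-341 mmu-miR-341-3p, at chr12:109611556-109611576. The target of miR-127 is mmu-miR-127-3p, at chr12:109592888-109592909. All coordinates are in GRCm38.p6. The hairpin of Mir341 (RefSeq, chr12:109611500-109611595, plus strand) is shown with the arm that gave signal in capitals, at bases 22 to 42. The opposite arm takes bases 57 to 77.
Mir341 hairpin: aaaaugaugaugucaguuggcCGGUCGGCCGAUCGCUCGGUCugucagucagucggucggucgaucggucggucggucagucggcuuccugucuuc

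Each miRNA had 3 repeat spots on each array, and 560 blank spots gave the background. Detection in a sample required that 50% or more of the spots exceed the mean plus 3 SD of the blanks, a limit of 303.2 intensity units in replicate 1 and 81.1 in replicate 2. Of the ureteric bud epithelial list, miR-200b, miR-200c and miR-429 were detected in both samples, and miR-200a and miR-141 were not (3 of 5). Of 27 measured markers of mesenchyme, endothelium, blood, muscle, nervous tissue and nephron, 0 were detected in both samples. Over the array 62 of 1040 miRNAs (5.96%) were, so 0 of 27 says little about other cells in the samples. miR-214 passed in replicate 2 only, but in replicate 1 it lay at 0.927 times the limit with 1 spot above it. Those 27 lay between 205.7 and 281.0 units in replicate 1 and between 44.4 and 88.0 in replicate 2. The blank level was not a neutral zero. The median miRNA lay above the mean blank spot in replicate 1 (222.9 against 203.9 units) and below it in replicate 2 (53.1 against 58.9).

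Of the 101 Dlk1-Dio3 miRNAs, 1 was detected, miR-341*, and it was detected in both samples. The background of this count was 62 of 1040 miRNAs detected in both samples (5.96%), 82 in replicate 1 (7.88%) and 64 in replicate 2 (6.15%), against 0.99% of the members in each case. Members share a locus and sequence families and are not independent, so the shares are a description. In a sorted population, fewer cells that hold a miRNA and less of it in each cell cannot be told apart. By limma's treat test, which asks for more than 2-fold signal over the blank level of the array, 1 member passed with Benjamini-Hochberg adjustment over all 1040 miRNAs, against 36 over the array (3.46%). Over the 101 members the median log2 signal over blank was 0.01, against 0.03 over all miRNAs. Members below the limit may still be present at levels that these arrays could not separate from background.

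**Figure D1:**
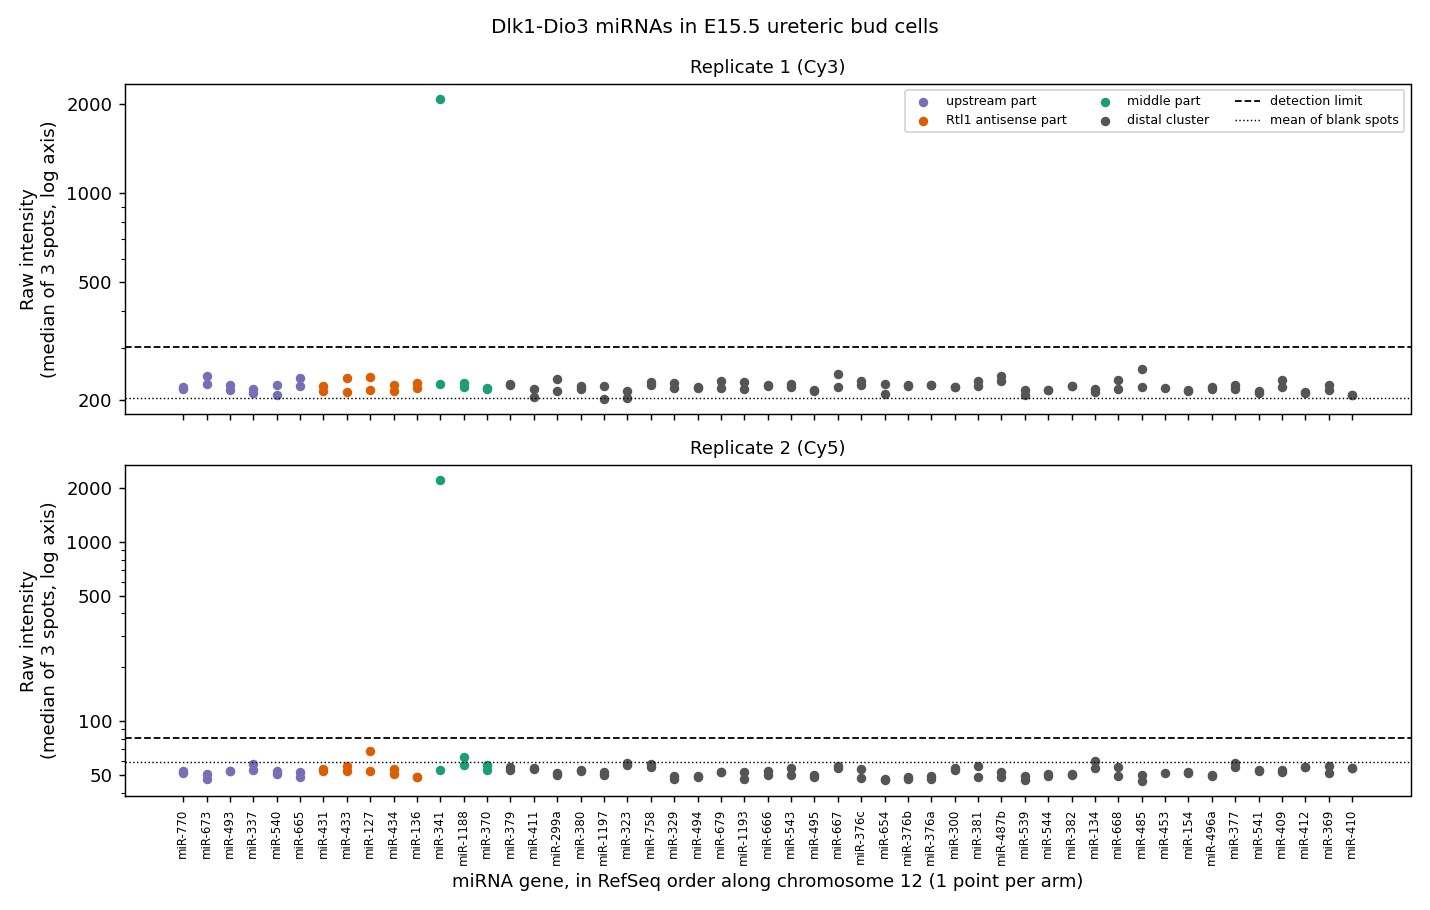
Raw intensity (median of 3 spots, log axis) of the 101 miRNAs in RefSeq order along chromosome 12, with 1 point per arm, replicate 1 above and replicate 2 below. Colours mark the position along the domain, the dashed line the detection limit and the dotted line the mean of the blank spots. In both samples miR-341* stands near the top of the panel and all the other points lie below the dashed line.

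The repeat spots of miR-341* gave 2091.0, 1998.6 and 2107.9 units in replicate 1. In replicate 2 they gave 2415.6, 1967.7 and 2217.5 units. All 6 spots were above the limits, and their spread was small beside the distance to the limit. The coefficient of variation between repeat spots, after subtraction of the median blank, was 3.16% in replicate 1 and 10.5% in replicate 2. The median spot stood at 6.90 times the limit in replicate 1 and 27.3 times in replicate 2. By raw intensity the probe ranked 4 of 1040 in replicate 1 and 2 in replicate 2. Probes differ in affinity, so these ranks are not an order of abundance.

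On the normalized log2 scale, the signal of miR-341* over blank was 4.13 in replicate 1 and 4.71 in replicate 2, or 4.42 ± 0.41 (SD, n = 2). It passed limma's treat test with an adjusted p of 9.24e-23, a value that rests on 1 spread shared by probes of like signal. The adjusted p was 0.0197 when the arrays were left without normalization. With the median blank subtracted in place of the normexp model, the signal over blank was 9.55. In that setting, spots less than 1 unit above the median blank were held at a floor of 1 unit before normalization. The spots of the opposite arm, miR-341, read 239.4, 216.8 and 227.4 units (replicate 1) and 53.0, 53.3 and 54.7 units (replicate 2). None of these spots reached a limit, and the medians of 227.4 and 53.3 lay close to those of all miRNAs.

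miR-341* also stood apart in how its signal divided between the samples. With each array's median blank subtracted, its raw signal in replicate 1 was 0.874 times that in replicate 2. The median ratio of the 62 miRNAs detected in both samples was 3.74, and the other 61 had ratios of 1.60 to 23.6. It was the 1 miRNA of those 62 with a higher raw intensity in replicate 2. After quantile normalization its log2 signal was 10.19 in replicate 1 and 11.18 in replicate 2, a difference of -0.99 (replicate 1 minus replicate 2). That difference was -0.18 without normalization and -1.58 with loess. In the authors' deposited value table, normalized by a method not given, it read 4121 and 13313, which is -1.69 on the log2 scale. With 1 sample per dye this difference has no replicate check, and whether dye, sample or chip gave rise to it cannot be told apart.

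**Figure D2:**
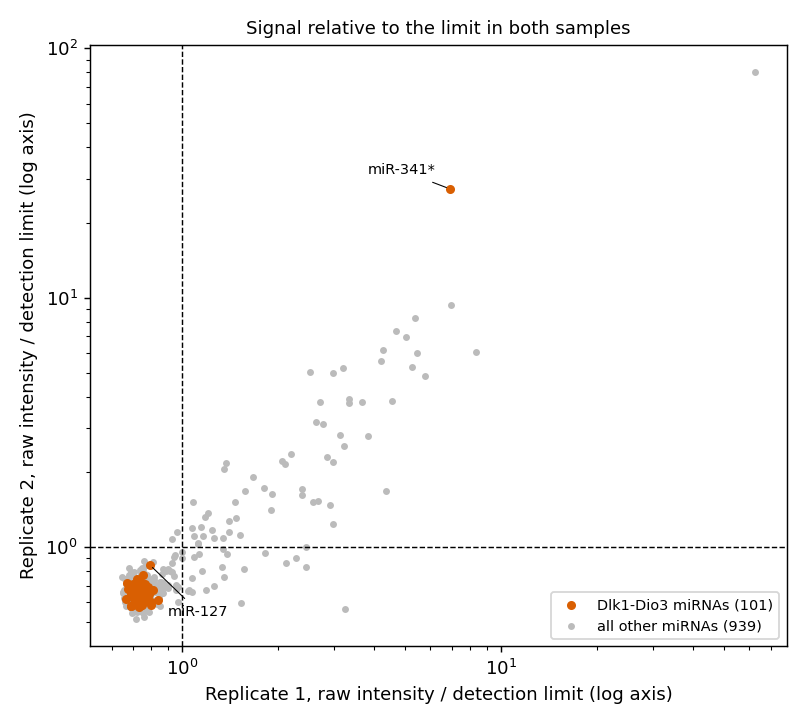
Raw intensity divided by the detection limit in replicate 1 (x) and replicate 2 (y), both on log axes, for the 101 Dlk1-Dio3 miRNAs (orange) and all other miRNAs of the array (grey). The dashed lines mark the limits. miR-341*, at 6.90 and 27.3, lies above the band of the other detected miRNAs, and miR-127, at 0.791 and 0.847, lies at the top of the orange cloud.

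The base composition of the miR-341* target was unusual among the members. It held 76.2% G and C, the highest of the 101, which began at 22.7%, against a median of 47.8% over the array. Another 18 miRNAs of the array had at least this share, and 3 of them were detected in both samples. Of the 15 members with at least 65% G and C, the other 14 were not detected. At the share of 5.96% over all miRNAs in both samples, so small a set would hold few detected miRNAs or none. That share covers targets of all compositions, and the share among other targets of at least 65% G and C was not determined. The 14 included miR-770-3p and miR-323-5p at 72.7%, miR-1188* at 72.0%, and miR-370 at 68.2%. The seed of miR-341* occurred in no other target on the array. The longest stretch of its target found in another was 8 bases, in miR-423-3p, which was not detected. A stretch of 7 bases was found in 5 others, of which miR-25 was detected in both samples and miR-128-2*, miR-341, miR-409-3p and miR-714 in neither. Across the 100 undetected members, the G and C share of the target had a Spearman correlation with intensity of 0.0728 in replicate 1 and 0.352 in replicate 2, against 0.116 and 0.280 over all 956 miRNAs detected in neither sample. Whether the composition of the target or other RNA that binds the probe contributed to the signal was not tested.

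The genes antisense to Rtl1 encode miR-431, miR-433, miR-127, miR-434 and miR-136, which can pair perfectly with the Rtl1 transcript and direct its cleavage. None of their 10 arms was detected, against 62 of 1040 miRNAs over the array in both samples (5.96%). A count of 0 among so few arms says little about them. By the lower of its ratios to the limits, miR-127 came closest of all undetected members, although 4 others (miR-485*, miR-667, miR-673-5p and miR-487b) were brighter in replicate 1. Its repeat spots read 230.9, 266.1 and 239.7 units (replicate 1) and 69.7, 65.7 and 68.7 units (replicate 2). Its median was thus 0.791 times the limit in replicate 1 and 0.847 times in replicate 2. All 3 spots of replicate 2 lay above the mean blank spot, and all 6 lay above the median miRNA of their array. Among the 956 miRNAs detected in neither sample, 62 were brighter than miR-127 in replicate 1 and 7 in replicate 2. It was the 1 undetected member among the brightest 10% of these 956 in both samples, a property that 30 of the 956 shared. Its log2 signal over blank was 0.42 and 0.47, and its unadjusted p in the treat test was 0.957 (limma, 2-fold bound). Against a limit drawn from the miRNA spots (their median plus 3 scaled median absolute deviations, chosen after seeing the data), miR-127 passed in replicate 2, where that limit was 67.6, and not in replicate 1, where it was 263.0.

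The other arms of this group stayed nearer to the middle of the array. miR-433 gave 236.9 units (replicate 1) and 56.0 units (replicate 2). miR-431 gave 222.5 and 54.1 units, and miR-136 gave 228.7 and 48.9. The arms of miR-434 read 224.6 and 53.9 units (miR-434-3p) and 215.5 and 50.9 (miR-434-5p). For miR-433 and miR-136 replicate 1 was above the array's median miRNA, while miR-136 was below it in replicate 2. The opposite arm miR-127* read 215.7 and 52.9 units, below the median miRNA in both samples.

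The middle genes, Mir341, Mir1188 and Mir370, lie together within the span of Rian. Apart from miR-341*, their 5 arms lay between 218.3 and 228.9 units in replicate 1 and between 53.3 and 62.9 in replicate 2. miR-1188*, whose gene neighbours Mir341, had the highest value of the 5 in each sample, at 0.755 and 0.775 times the limits. Its log2 signal over blank was 0.30 in replicate 1 and 0.18 in replicate 2. miR-370 gave 219.5 and 57.3 units. The neighbours of miR-341* thus showed no signal of its size, although all 3 genes share a host span in RefSeq.

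The upstream genes, from Mir770 in Meg3 to Mir665, had 12 arms on the array and 0 detected. At the array's share of 5.96% in both samples, so small a set would hold few detected miRNAs or none. In replicate 1 the 12 arms ranged from 208.7 to 241.6 units, with miR-673-5p the highest. In replicate 2 the range was 47.7 to 57.5 units, with miR-337-5p the highest. miR-673-5p, highest in replicate 1, was the lowest of the group in replicate 2. The arms of miR-770, which is encoded within Meg3 itself, read 217.4 and 51.3 units (miR-770-3p) and 221.2 and 53.1 (miR-770-5p).

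The distal cluster, from Mir379 to Mir410, holds most miRNA genes of the domain, and its transcription in neurons is raised by Mef2. Its 73 arms from 37 genes lay between 201.3 and 254.8 units in replicate 1 (median 220.9). In replicate 2 they lay between 46.5 and 60.2 units (median 51.9). None of the 73 arms was detected, against 62 of 1040 miRNAs over the array in both samples (5.96%). The arms share a locus and sequence families and are not independent, so this comparison is a description. The ends of the cluster gave 227.5 and 55.3 units for miR-379 and 207.8 and 54.8 for miR-410. miR-134, which limits the growth of dendritic spines in neurons by repressing Limk1, had the highest value of the cluster in replicate 2, at 60.2 units or 0.742 times the limit. In replicate 1 it gave 218.8 units, below the median miRNA, so its place in the array differed between the samples. miR-377 gave 225.4 and 58.2 units, miR-381 223.1 and 56.3, and miR-411 204.6 and 55.2. The last of these was below the median miRNA in replicate 1 and above it in replicate 2.

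In replicate 1 the highest values of the cluster were those of miR-485* at 254.8 units, miR-667 at 244.2 and miR-487b at 240.9. In replicate 2 the same miRNAs read 49.9, 54.6 and 48.9 units, below the blank level, where most miRNAs of that array lay. There miR-667 was above the median miRNA (53.1 units), and miR-485* and miR-487b were below it. The replicate 1 limit rests in part on a single blank spot of 916.8 units. Without the brightest blank spot of each array the limit in replicate 1 would be 243.5 units, which miR-485* and miR-667 exceed and miR-127 does not. None of the 3 passed in replicate 2, where that limit would be 80.4. The opposite arm miR-485 read 221.4 and 46.5 units, and its value in replicate 2 was the lowest of all members.

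Some further arms of the cluster are given here as undetected examples. miR-409-3p read 234.7 and 53.6 units, or 0.774 and 0.661 times the limits. miR-382 read 223.6 and 50.9 units, and miR-494 read 220.9 and 49.5. miR-495 gave 215.1 and 49.9 units, miR-543 226.8 and 50.2, and miR-539-5p 216.5 and 49.3. In replicate 2 all of them except miR-409-3p were below the median miRNA. miR-154 gave 216.9 and 52.0 units and miR-541 214.6 and 52.5, both below the median miRNA in each sample.

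Of the other members nearest to the limit, miR-1188* and miR-377 also had all their spots above the median miRNA of each array. Each of the rest had at least 1 spot below it. The spots of miR-1188* read 227.7, 260.0 and 228.9 units (replicate 1) and 62.9, 69.2 and 56.4 units (replicate 2). Those of miR-134 read 203.2, 240.2 and 218.8 units and, in replicate 2, 61.7, 60.2 and 55.9. For both, the spots of replicate 2 lay on either side of the mean blank spot. miR-377 gave spots of 224.3, 234.9 and 225.4 units, with 58.2, 62.2 and 56.6 in replicate 2. miR-758* gave 238.5, 230.7 and 222.4 units, with 52.4, 58.7 and 57.8 in replicate 2. No spot of miR-758* exceeded the mean blank spot of replicate 2, and 1 spot of miR-377 did. The 3 spots of miR-370 were at 215.8, 224.8 and 219.5 units and at 59.7, 53.4 and 57.3 in replicate 2. Those of miR-323-3p were at 217.4, 214.9 and 199.5 units and at 57.2, 54.2 and 57.3. miR-323-3p thus stayed below the median miRNA in replicate 1 and above it in replicate 2. The spots of miR-1188 were at 202.4, 243.2 and 221.8 units and at 52.0, 56.8 and 58.1. Those of miR-337-5p were at 221.8, 210.2 and 211.8 units and at 57.5, 55.6 and 58.3. Those of miR-667* were at 240.7, 212.5 and 222.1 units and at 56.5, 55.5 and 64.4. No spot of the 10 nearest members, miR-127 included, reached its limit in either sample.

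**Figure D3:**
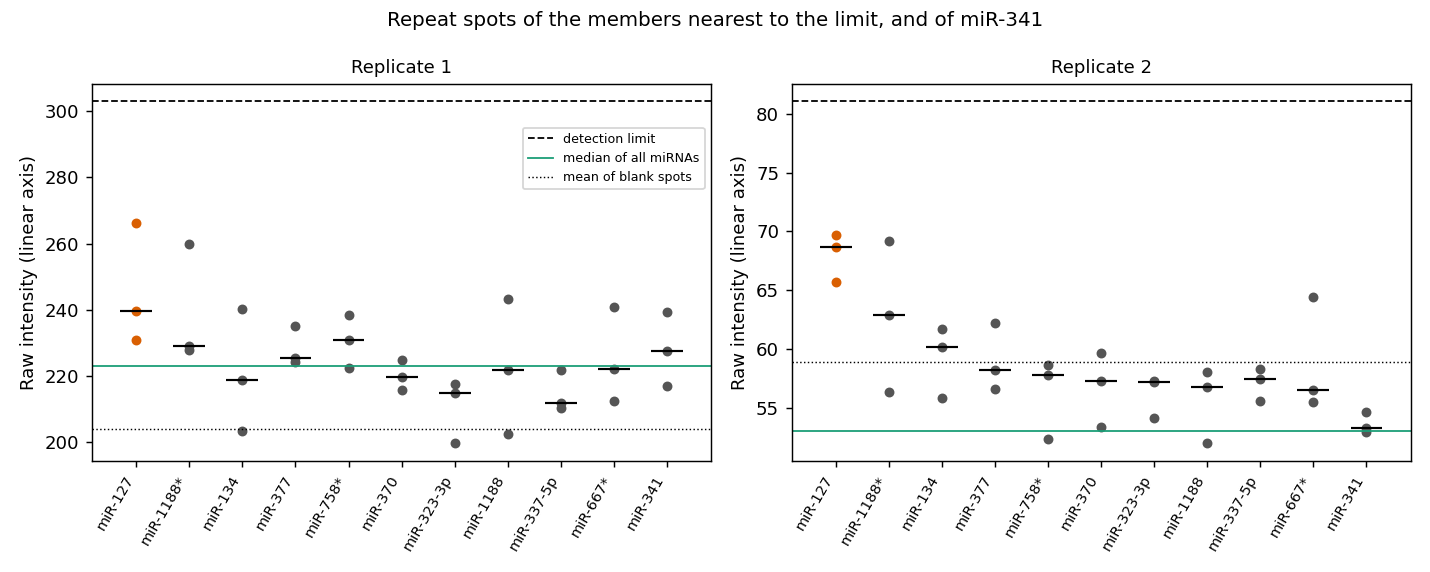
Repeat spots (points) and their median (bar) of the 10 undetected members closest to the limit in both samples and of miR-341, in raw intensity on linear axes that do not start at 0. The dashed line is the detection limit, the dotted line the mean of the blank spots and the green line the median of all miRNAs. The spots of miR-127 (orange), miR-1188* and miR-377 lie above the green line in both samples. For miR-323-3p and miR-337-5p all spots of replicate 1 lie below it.

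Some members share a seed. Of the 93 different seeds among the members, 8 were shared by a pair, and none of those 16 miRNAs was detected. At the array's share of 5.96% in both samples, so small a set would hold few detected miRNAs or none. The values of the 16 spanned 201.3 to 231.9 units (replicate 1) and 47.0 to 57.8 units (replicate 2). Members of such pairs and the miR-376 family are shown because their targets are alike in the 5′ part, capitals again marking the seed.
miR-379: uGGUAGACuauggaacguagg
miR-1193-5p: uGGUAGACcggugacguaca
miR-381: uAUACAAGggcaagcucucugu
miR-539-3p: cAUACAAGgauaauuucuuuuu
miR-376a: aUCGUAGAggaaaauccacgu
miR-376b: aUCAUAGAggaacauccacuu
miR-376c: aACAUAGAggaaauuucacgu
The pair miR-379 and miR-1193-5p read 227.5 and 230.0 units (replicate 1) and 55.3 and 52.0 units (replicate 2). The pair miR-381 and miR-539-3p read 223.1 and 208.5 units (replicate 1) and 56.3 and 47.0 units (replicate 2). miR-376a, a miRNA whose seed is altered by A-to-I editing in brain, gave 224.9 and 49.2 units. miR-376b gave 224.0 and 47.4 units and miR-376c 225.1 and 48.0, and the targets of miR-376b and miR-376c share a stretch of 10 bases. In replicate 2 all 3 were under the mean blank spot, as were most miRNAs (146 of 1040, or 14.0%, lay above it). The longest run shared within the family, 18 bases, was that of the opposite arms miR-376b* and miR-376c*. miR-376b* gave 225.0 and 48.9 units and miR-376c* 231.9 and 54.2. Probes with targets this alike can share signal.

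Across the 100 undetected members, the medians of 3 spots had an SD of 8.95 units in replicate 1 and 3.60 in replicate 2. The median SD between single repeat spots of 1 miRNA was 9.14 and 2.59 units. A median of 3 spots varies less than a single spot, so these SDs do not show whether members differed beyond spot error. Their median was 221.1 units (replicate 1) and 52.3 units (replicate 2), against 222.1 and 52.8 for the 856 other undetected miRNAs. The median undetected member lay 82.2 units below the limit in replicate 1 and 28.8 units below it in replicate 2. The highest was at 0.840 times the limit in replicate 1 and 0.847 times in replicate 2. Across the 100 members, intensities in both samples had a Spearman correlation of -0.0478 (0.150 over all 956 undetected miRNAs). This is a description across probes that share an array and its background. The authors' deposited value table gave the same 100 members values of 2 to 44 in replicate 1 and 0 to 46 in replicate 2, with medians of 9 and 7, against medians of 10 and 9 over all miRNAs.

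**Figure D4:**
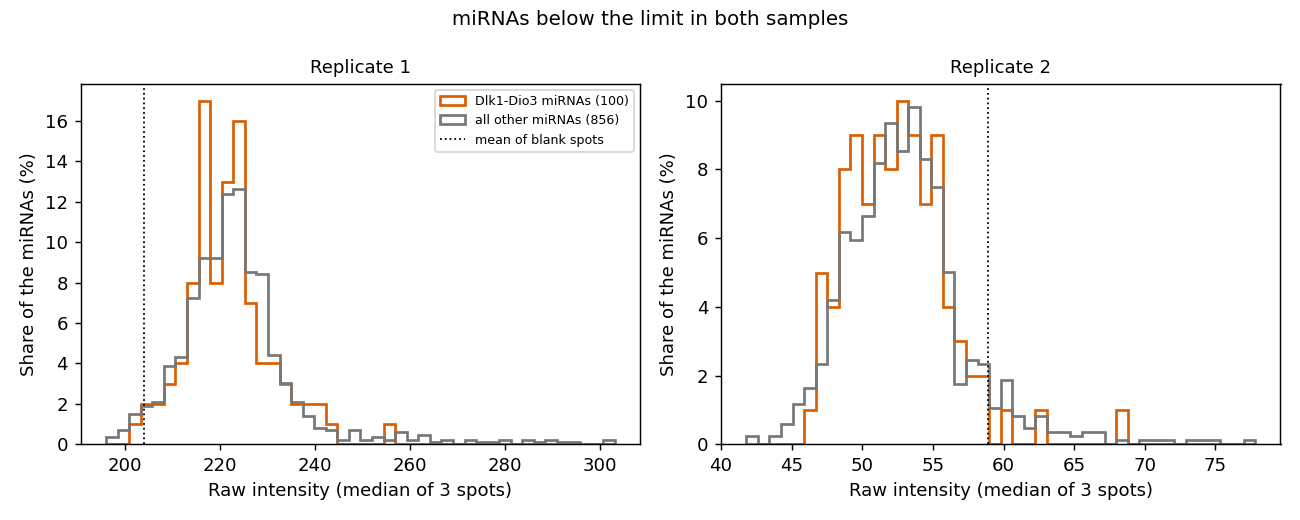
Distribution of raw intensity (median of 3 spots) of miRNAs detected in neither sample, as a share of each set, for the 100 Dlk1-Dio3 miRNAs (orange) and the 856 others (grey). The dotted line marks the mean of the blank spots. Most miRNAs of both sets lie above the dotted line in replicate 1 and below it in replicate 2. The members end at 254.8 and 68.7 units, and the others reach 303.1 and 77.8.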

How the data were processed

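Total RNA (4 µg per assay) was size-selected below 300 nt, tailed, tagged and hybridised by a service provider, per the labels' protocols. Per the file headers, the deposited scanner output gives each spot's mean intensity, neither background-subtracted nor normalized as far as the blank spots show. Scanner software and genome build were not given in the sources used here. The deposited value table holds 1 score per miRNA, a whole number on a linear scale; its background correction and scaling are unknown, and it correlates with raw intensity at Pearson's r = 0.998 and 0.982 across miRNAs (column medians 10 and 9).

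Detection used raw intensity. For log2 levels, intensities were normexp-corrected (offset 50), quantile-normalized over miRNA spots, and the median of 3 repeat spots was taken. Blank spots were passed through the same map, and treat (limma 3.58.1, R 4.3.3) was fitted to all 1040 miRNAs with a trend and a 2-fold bound (adjusted p threshold 0.05). The prior degrees of freedom were infinite. Both steps were tested on simulated arrays, where treat missed weaker planted signals that the detection rule found. The planted signals were equal multiples of the blank SD in both samples, so a difference between dyes or samples was not simulated. The p-values therefore rest on the spread between these 2 samples pooled over probes of like signal, not on a probe's own spread. The labels name no separate preparations, so this spread may be technical. The number of arrays limits the precision.

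The members, lists and tests were chosen with earlier results of these data known. Named in full are members detected in any sample, their opposite arms and the 10 undetected members with the highest lower ratio to the limit; named with values are further well-known members, and miR-667, miR-485*, miR-487b, miR-673-5p and pairs of shared seed were chosen after their values were seen.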

Additional observations from a re-analysis of the deposited data

How the results depend on the processing

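The count of 1 member detected in both samples, miR-341*, was the same at 6 and 10 blank SD and at the 95th percentile. A median-based blank limit, removal of the brightest blank spot, all repeat spots required or the limit from miRNA spots left it unchanged. Either sample alone, at the main limit, also gave 1. In replicate 1 alone, the median-based limit (244.2 units) and that without the brightest blank spot (243.5) each passed miR-341*, miR-667 and miR-485*. Over the array 132 and 133 miRNAs passed these limits in replicate 1. In replicate 2 alone, the limit from miRNA spots passed miR-341* and miR-127. In replicate 1 alone, the 95th percentile of blank spots (226.1 units) let 25 members pass, against 375 of all miRNAs, and 1 member in replicate 2. The treat count of 1 member was the same under 7 alternatives, while the count over the array, 36, ran from 2 without normalization to 68 for any signal over blank. The log2 signal of miR-341* over blank, 4.42, lay between 3.98 and 4.83 except 9.55 with the median blank subtracted. Its difference between the samples, -0.99, was -0.18 without normalization and -1.69 in the authors' value table, and kept its sign under all 6 alternatives. The cause was not tested. The members' median log2 signal over blank, 0.01, was 1.04 with the median blank subtracted, where dim spots are held at the floor, and -0.18 and 0.21 in single samples. The value table holds no blank spots and gave no signal over blank. All members were placed by RefSeq, so that restriction changed nothing. No paired analysis was possible because there is 1 group. Signal over background limits what can be said of the other 100 members.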

Other observations

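Another 12 miRNAs on the array are encoded between Dlk1 and Dio3 in RefSeq but carry numbers outside the 49 examined. They are miR-3070a, miR-3070a*, miR-3070b-3p, miR-3071, miR-3071*, miR-3072, miR-3072*, miR-432, miR-1247, miR-1247*, miR-882 and miR-1906. None was detected in both samples. miR-3072* was detected in replicate 1, where its spots gave 342.8, 389.8 and 347.9 units or 1.15 times the limit. In replicate 2 its spots gave 65.5, 65.2 and 60.7 units, 0.804 times the limit. Its target is rich in G and C like that of miR-341* (77.3%), and its opposite arm miR-3072 read 215.7 and 56.2 units. The other 11 lay between 206.2 and 229.9 units in replicate 1 and between 46.6 and 62.8 in replicate 2. A signal for miR-3072* over blank was not shown by limma's treat test (adjusted p = 1.0, over all 1040 miRNAs).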
